A study of Danio rerio with 56 samples.

Results

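Zebrafish embryos with 1 parent fed benzo[a]pyrene (BaP) were compared according to which parent it was, so that the number of exposed parents was equal on both sides. The comparison used 8 of the 24 RNA libraries of the series, which has 56 samples in all, and the 8 were chosen by their titles. In 4 libraries the mother had eaten BaP and the father was a control, here called mother-exposed embryos, and in the other 4 the father had eaten BaP and the mother was a control, here called father-exposed embryos. All fish were of the 5D strain. Exposed parents were fed BaP in flakes (1250 µg/g food, a dose of 25 µg/g fish) over 21 days, starting at 120 days post fertilisation, and control parents were fed acetone-treated flakes. Embryos were taken at 10 hours post fertilisation (hpf). A further 4 libraries, labelled only BaP, were read as having 2 exposed parents, and 4 had 2 control parents. They entered the statistical model and are shown beside the comparison, as are eggs of BaP-fed and of control mothers. The labels give neither the number of embryos in a library nor its tank or spawning, so the error terms measure the spread between libraries, and no batch is given within which values could be recomputed.

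BaP is a polycyclic aromatic hydrocarbon that binds the aryl hydrocarbon receptor, a transcription factor that switches on cytochrome P450 enzymes, and some of the products of those enzymes form adducts on DNA. A mother can pass on RNA, protein and stored chemical in the yolk, whereas a father passes on sperm chromatin and little cytoplasm. The early embryo runs on RNA loaded into the egg until its own genome is switched on during the blastula stages, and by the end of gastrulation, near 10 hpf, most of the maternal store has been cleared and replaced by embryonic transcripts. Embryos were read in bulk, so fewer cells of a type and less RNA per cell cannot be told apart.

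The deposited tables list 57192 rows by Ensembl transcript identifier, and 0 of them are paired with a gene by the reference tables, so transcripts are described by their length, stage and level, with 2 named in each direction. Genes of the aryl hydrocarbon receptor pathway could therefore not be looked up. Totals were 29855819 to 35659047 estimated read counts in mother-exposed and 26010776 to 35914547 in father-exposed libraries. The libraries differed little in kind. The typical difference between 2 libraries, as the root mean square log2 difference over 18554 transcripts averaging at least 2 CPM (read counts scaled to library size), had a median of 0.752 between the crosses, against 0.703 within the mother-exposed and 0.780 within the father-exposed cross. Father-exposed replicate 4 stood furthest from its own cross, with a median absolute log2 difference of 0.254 from the mean of its 3 sister libraries, against 0.158 to 0.183 for the other father-exposed libraries and 0.145 to 0.167 for the mother-exposed ones. In the model, replicate 2 of the cross with 2 exposed parents stood apart too, with 1.32% of its counts in egg-enriched transcripts (defined with the stage results), against 0.570% to 0.619% in its sister libraries.

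One transcript separated the crosses past the threshold. Of 30894 transcripts tested, 1 (0.00324%) was called higher in mother-exposed embryos and 0 were called lower (edgeR quasi-likelihood test, Benjamini-Hochberg adjusted p under 0.05 over all tested). At an unadjusted p under 0.05 there were 1883 higher (6.1%) and 1400 lower (4.53%). DESeq2 called 496, of which 355 (1.2% of those it tested) were higher and 141 (0.478%) lower in mother-exposed embryos. Of the 496, 488 were kept by the edgeR filter, all with the same direction there. The libraries of the crosses did not overlap for 428 of these 488, which were picked for that difference, against 7.25% of all transcripts tested. Leaving out father-exposed replicate 3, the smallest library, gave 18 edgeR calls, 16 higher and 2 lower. Leaving out replicate 2 of the cross with 2 exposed parents gave 40 (36 higher, 4 lower). That library is in neither compared cross, but it enters the estimate of the spread, the edgeR filter and the library scaling.

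**Figure D1:**
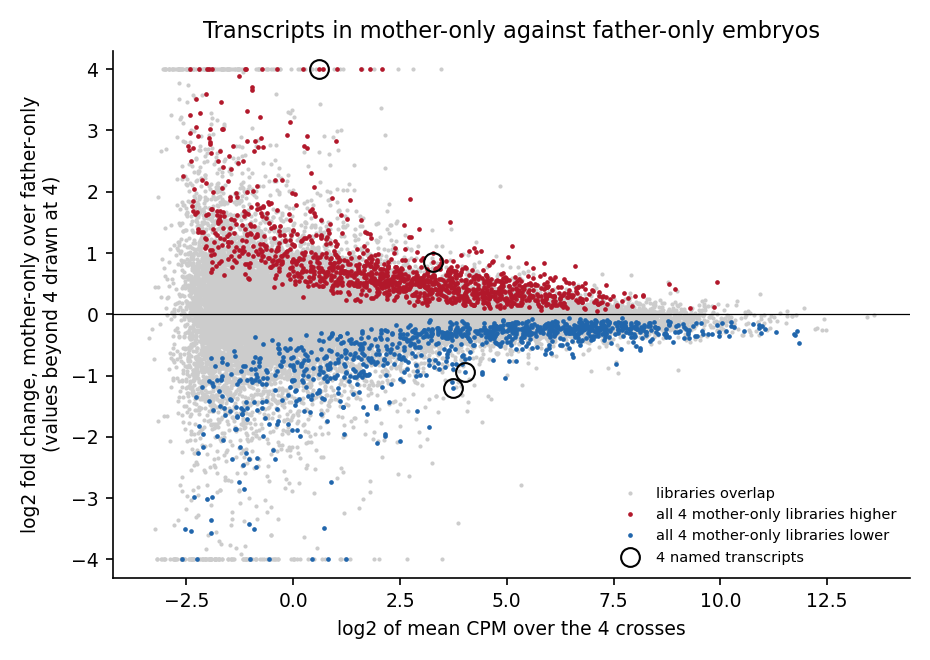
Each point is a transcript: its mean level over the 4 crosses (log2 CPM) against its log2 fold change, mother-exposed over father-exposed, with values beyond 4 drawn at 4. Red points have all 4 mother-exposed libraries above all 4 father-exposed libraries (1263 transcripts), blue points the reverse (976), grey points overlap, and circles mark the 4 named transcripts. Blue points lie mostly close to 0 and further to the right, red points reach larger fold changes at low levels.

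The called transcript, ENSDART00000187324.1 (4813 bases), was read in every mother-exposed library and in no father-exposed library. Its levels were 1.84, 2.99, 1.36 and 2.45 CPM in the mother-exposed libraries and 0 CPM in each of the 4 father-exposed libraries. Embryos with 2 exposed parents had 2.06, 2.84, 2.55 and 1.25 CPM, and embryos with 2 control parents had 1.72, 1.72, 2.61 and 0.828 CPM. The father-exposed cross was thus the one without reads, while the mother-exposed values overlapped those of the other crosses. Summed over libraries, the mother-exposed cross had 274 estimated counts, 90.9-fold above a floor of 3 counts over the whole father-exposed cross (0.0234 CPM). The floor allows for counting error in the father-exposed zeros only. It covers neither error in the mother-exposed counts nor the division of reads between transcripts (edgeR adjusted p of the call = 0.00078). Eggs held it at 0.235 ± 0.18 TPM in BaP-fed mothers and 0.172 ± 0.132 TPM in control mothers (SD, n = 4 each) on the deposited length-scaled TPM scale. Replicate 3 of the eggs of BaP-fed mothers stood at 0 TPM for this transcript. Its estimated counts were whole in 4 of the 16 embryo libraries, the 4 in which it was 0, and a 0 is whole in any case. In the other 12 some of its reads were shared with other transcripts and divided by estimate. Whether reads of the father-exposed libraries were assigned to other transcripts was not tested. The call was lost when the 8 libraries were fitted alone (edgeR adjusted p = 0.0884) and in limma on log2(TPM + 1) (limma adjusted p = 0.0895).

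ENSDART00000189361.1 (3495 bases) had the next smallest p of those higher in mother-exposed embryos and missed the threshold narrowly. Its levels were 9.65, 10.4, 9.87 and 8.29 CPM in mother-exposed libraries, against 5.29, 5.73, 4.62 and 5.6 CPM in father-exposed libraries. The crosses did not overlap, and the mother-exposed values lay below those with 2 exposed parents (12.9 ± 1.22 CPM) and next to those of control embryos (10.6 ± 1.17 CPM; SD, n = 4 each). The log2 fold change between the crosses was 0.85 ± 0.12 (SE, edgeR adjusted p = 0.0503). It passed in DESeq2 (DESeq2 adjusted p = 7.2e-08), under the stricter low-count filter (edgeR adjusted p = 0.0344) and without mother-exposed replicate 4 (0.0321), father-exposed replicate 3 (0.0451), control replicate 1, 3 or 4 (0.0355, 0.0473 and 0.048) or replicate 2 of the cross with 2 exposed parents (0.0288). It missed the threshold in the other alternatives. The edgeR adjusted p was 0.187 in the 8 libraries alone, 0.149 without mother-exposed replicate 3 and 0.134 without father-exposed replicate 1.

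The transcripts lower in mother-exposed embryos with the smallest p both had mother-exposed means below, and father-exposed means above, the mean of control embryos. ENSDART00000157890.2 (3711 bases) had 7.56, 9.33, 12.3 and 9.97 CPM in mother-exposed libraries, against 25.1, 19.9, 16.7 and 28.9 CPM in father-exposed libraries. All father-exposed values exceeded all mother-exposed values, and embryos with 2 exposed parents had 7.49 ± 1.55 CPM, against 13.5 ± 2.09 CPM in control embryos (SD, n = 4 each). Its log2 fold change was -1.21 ± 0.20 (SE), which did not pass (edgeR adjusted p = 0.0951).

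ENSDART00000052322.5 (2817 bases) had 12.1, 13.7, 9.81 and 10.1 CPM in mother-exposed libraries, against 23.8, 21.6, 18 and 24.5 CPM in father-exposed libraries. Here the mother-exposed values lay next to those with 2 exposed parents (13.2 ± 2.63 CPM), and the father-exposed values next to those of controls (18.9 ± 2.32 CPM; SD, n = 4 each). Its log2 fold change of -0.94 ± 0.16 (SE) did not pass (edgeR adjusted p = 0.0951). This transcript was nearly absent from eggs, at 0.211 ± 0.112 TPM in eggs of BaP-fed mothers and 0.151 ± 0.0872 TPM in control eggs, against 8.57 ± 1.4 TPM in mother-exposed and 15.5 ± 1.84 TPM in father-exposed embryos (SD, n = 4 each). Its counts were whole in 15 of the 16 embryo libraries, which is how counts look when no read is divided. ENSDART00000157890.2 and ENSDART00000052322.5 passed in DESeq2 (DESeq2 adjusted p of 8.8e-06 and 1.1e-05). In edgeR they passed without father-exposed replicate 3 (edgeR adjusted p of 0.043 and 0.0451) and without replicate 2 of the cross with 2 exposed parents (0.0296 and 0.0389). Neither passed in the other alternatives. Both had an edgeR adjusted p of 0.187 in the 8 libraries alone and of 0.234 without father-exposed replicate 1.

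**Figure D2:**
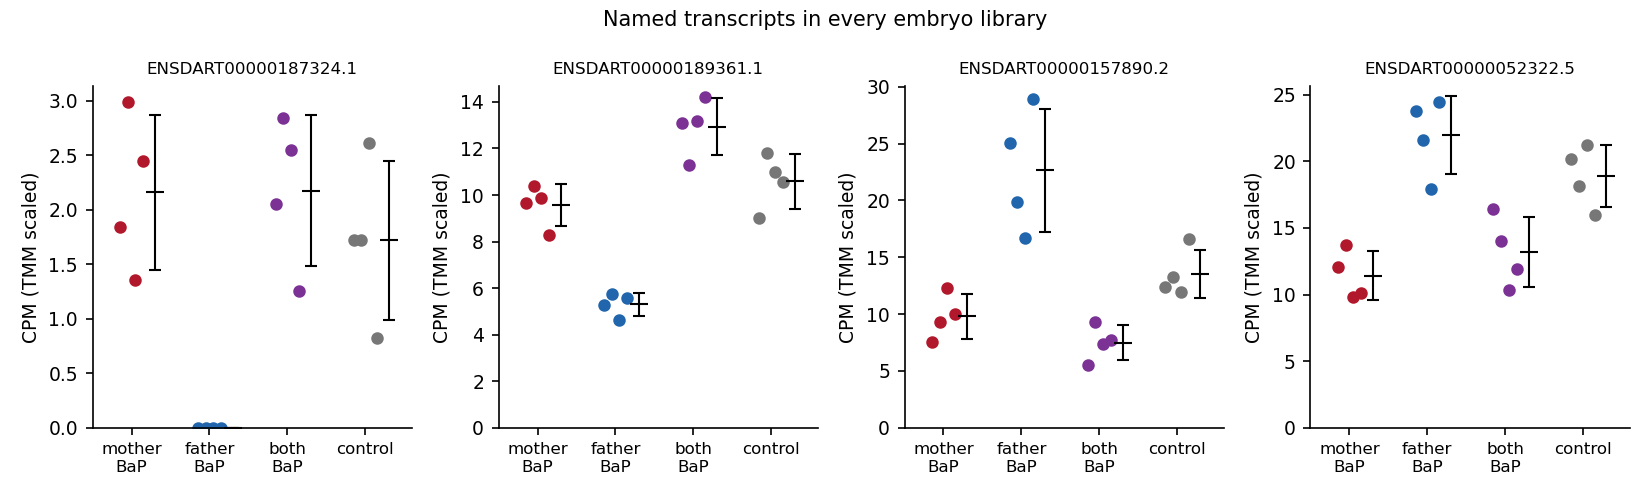
Level in CPM (vertical axes, TMM scaled, from 0) of the 4 named transcripts in every embryo library, by cross. Points are libraries, and bars give the mean and SD of 4. In each panel the mother-exposed and father-exposed points do not overlap, and the father-exposed points of the first panel are all 0.

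Few transcripts were present in one cross and missing from the other. Taking as present those with reads in all 4 libraries and a cross mean of 1 CPM or more, and as missing those without a read in all 4, there were 6 of 21486 transcripts (0.0279%) present in mother-exposed and missing from father-exposed embryos, against 1 of 20994 (0.00476%) the other way. Of the 6, 4 had reads in all 4 libraries with 2 exposed parents and 2 had reads in all 4 control libraries, while 1 had none in any control library. None of the 7 had whole counts in all 16 libraries, and 1 of them was called by edgeR. Other pairs of crosses gave counts in the same range, for which no shares were computed. With 2 exposed parents, 7 were present that were missing from controls, and 2 the other way. Missing from father-exposed embryos were 5 present in controls and 7 present with 2 exposed parents, against 2 and 1 the other way.

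Beyond single transcripts, the libraries of the crosses did not overlap for 2239 transcripts (7.25%), 1263 of them higher (4.09%) and 976 lower (3.16%) in mother-exposed embryos. Computed on TPM instead, the split was 6.96% higher and 1.18% lower. Embryos with 2 exposed parents and control embryos took no part in the choice by overlap, and both lay mostly on the mother-exposed side. Their libraries did enter the low-count filter of the fit. A transcript low in father-exposed embryos could pass that filter by being high in the other crosses, which can tilt the shares below. Embryos with 2 exposed parents were nearer to the mother-exposed than to the father-exposed mean for 1901 of the 2239 (84.9%), against 64.1% of all tested transcripts. Control embryos were nearer to the mother-exposed mean for 1678 (74.9%), against 57.7% of all tested. The 2239 were picked for wide gaps, with a median absolute log2 fold change of 0.507 against 0.219 over all tested. The shares over all tested are not matched for that. Among the 352 higher transcripts over 5000 bases the shares were 95.2% for 2 exposed parents and 89.5% for controls. The 911 higher transcripts of up to 5000 bases, picked in the same way, had 86.3% and 73.3%. No share over all transcripts longer than 5000 bases was computed. Among the 50 transcripts of smallest p, 47 (94%) were higher in mother-exposed embryos, against 49.9% of all tested. In all 47 the father-exposed fitted level was below control, and in 22 of them the mother-exposed level was above control. No share over all tested was computed for either position against control. These 50 were picked by their p and are described without a test.

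The difference between the crosses changed with transcript length. Among transcripts of at least 2 CPM, the median log2 fold change, mother-exposed over father-exposed, was -0.08 for the 2810 of up to 1000 bases, -0.05 for 1000 to 2000 bases, -0.02 for 2000 to 3000 bases, 0.02 for 3000 to 5000 bases, 0.07 for 5000 to 8000 bases and 0.11 for the 565 longer than 8000 bases. Over all 18554 it was -0.02. The share of transcripts with every mother-exposed library higher climbed with length, at 2.35%, 2.41%, 3.09%, 6.19%, 11.2% and 17% in these 6 classes, while the share with every mother-exposed library lower was 4.16%, 4.89%, 5.37%, 3.33%, 1.37% and 1.06%. Over all 18554 the shares were 4.68% higher and 4.09% lower. These values are on the TMM scale, edgeR's library scaling. On the log2(TPM + 1) scale the median was 0.14 for the longest class, 0.03 for the shortest and 0.07 over all 18554, so the shortest class lay below the overall median on both scales but above 0 on the second.

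**Figure D3:**
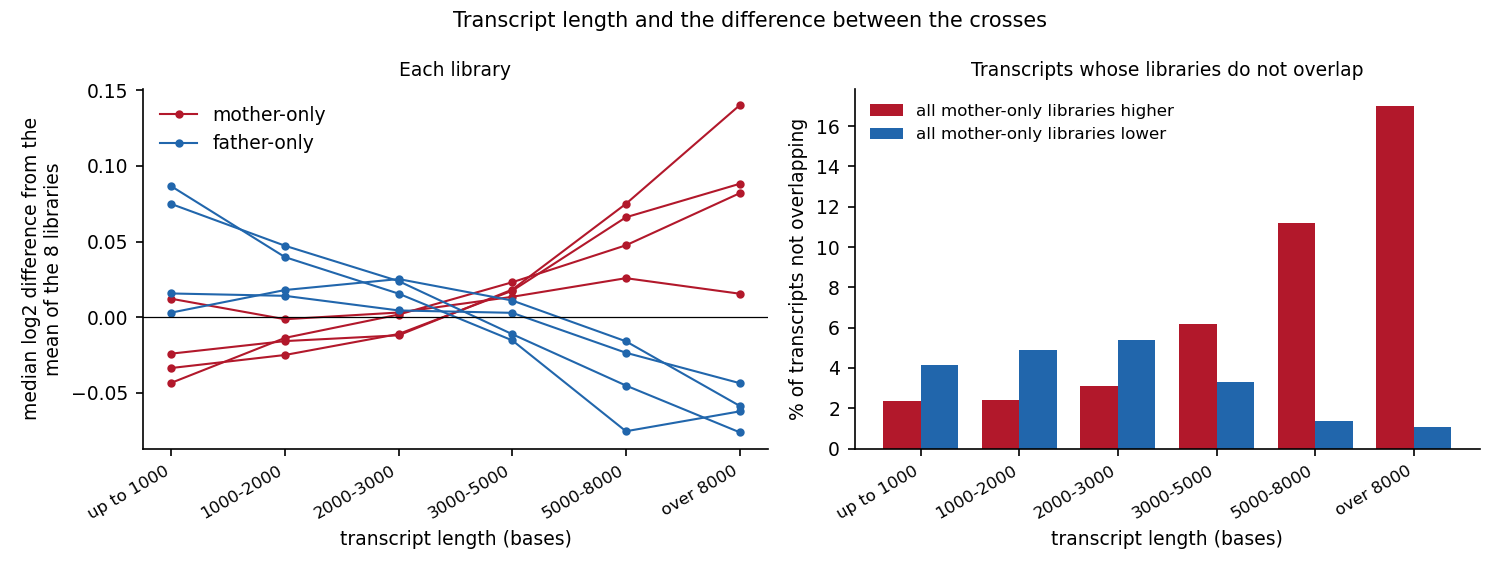
Left, the median log2 difference of each library from the mean of the 8 libraries (vertical axis), by class of transcript length in bases, for transcripts of at least 2 CPM. Right, the percentage of transcripts in each class whose libraries do not overlap, higher (red) or lower (blue) in mother-exposed embryos. Over 5000 bases all red lines lie above all blue lines, and the red bars grow to 17%.

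Each mother-exposed library stood above each father-exposed library for long transcripts. The library medians of the 2529 transcripts over 5000 bases, relative to the mean of the 8 libraries, were 0.0719, 0.0537, 0.0865 and 0.0225 on the log2 scale in mother-exposed libraries, against -0.0543, -0.0269, -0.0278 and -0.0735 in father-exposed libraries. Mother-exposed replicate 4 was the nearest to the father-exposed cross. For transcripts of up to 1000 bases the crosses overlapped, with -0.0336, -0.0434, -0.0241 and 0.0122 in mother-exposed and 0.0748, 0.003, 0.0157 and 0.0865 in father-exposed libraries.

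Set against controls, whose libraries both values share, the longest class (over 8000 bases) had median log2 fold changes of -0.03 in mother-exposed, -0.15 in father-exposed and 0.04 in embryos with 2 exposed parents. The shortest class had -0.03, 0.07 and -0.05. The father-exposed cross thus had the lowest median of long and the highest median of short transcripts, on the TMM scale. By library, the longest class ran from -0.08 to 0.03 in mother-exposed and from -0.15 to -0.14 in father-exposed embryos, relative to the control mean. Libraries with 2 exposed parents ran from -0.03 to 0.09. Control libraries, each set against its sister libraries, ran from -0.06 to 0.07. In the shortest class, father-exposed libraries (0.0196 to 0.113) overlapped control libraries (-0.00341 to 0.0221). Between eggs of BaP-fed and control mothers the medians were -0.002 for the longest class and -0.008 for the shortest. The length of a transcript minus its effective length, taken at its commonest value among transcripts without reads as a stand-in for the mean fragment length, was 281 to 290 bases in mother-exposed and 273 to 287 bases in father-exposed libraries, with 273 in father-exposed replicate 4. Its part in the result was not tested.

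Transcripts with whole counts, whose reads show no division, had the same order. Among transcripts of at least 2 CPM with whole counts in all 16 embryo libraries, the 267 over 5000 bases had log2 fold changes with a median of 0.05, against -0.05 for the 1787 of up to 2000 bases. The 2262 over 5000 bases with divided counts had 0.09, and the 6501 of up to 2000 bases -0.06.

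Transcripts over 5000 bases took 16%, 15.8%, 16.3% and 15.4% of the counts in mother-exposed libraries, against 14.3%, 14.8%, 15% and 14.6% in father-exposed libraries. The crosses did not overlap, and embryos with 2 exposed parents (16.4% ± 0.474) and controls (16.05% ± 0.373) lay with the mother-exposed ones. The means were 15.9% ± 0.405 and 14.6% ± 0.298 (SD, n = 4 each), a difference of 1.25 percentage points (two-sided exact permutation p = 0.0286, the smallest that 4 against 4 can give, and 0.0714 adjusted over the 5 library measures). The difference did not pass after that adjustment, and as a share of TPM it was 0.262 percentage points (exact permutation p = 0.0286 again). Even the smallest possible p passes this adjustment only if most of the 5 measures reach it, which they did not. This measure was chosen with earlier results of these libraries known, so its p is no independent support.

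Fewer transcripts had a read in father-exposed embryos. With every library thinned by expectation to the total of the smallest, 37241, 36394, 36609 and 36189 transcripts had a read in mother-exposed libraries, against 36039, 36131, 36132 and 35754 in father-exposed libraries. Mother-exposed replicate 4 exceeded the highest father-exposed library by little, and mother-exposed replicate 1 stood well above the rest. The means were 36608 ± 455 and 36014 ± 179 (SD, n = 4 each; two-sided exact permutation p = 0.0286, adjusted over 5 measures 0.0714), so the difference did not pass after adjustment. Here too the unadjusted p was the smallest that 4 against 4 can give, and the same limit of the adjustment applied. Embryos with 2 exposed parents had 37314 ± 194 and controls 36721 ± 91.9. Without mother-exposed replicate 1 the difference was 383 in place of 594 transcripts, and without thinning it no longer passed before adjustment (610 transcripts, exact permutation p = 0.143).

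RNA of the egg store was compared next, using sets defined by the levels in control eggs and control embryos. Egg-enriched transcripts (3252) were at least 3 higher on the log2 scale in control eggs than in control embryos, embryo-enriched transcripts (3583) at least 3 lower, and the higher stage had at least 2 CPM. A set of 7207 transcripts level between the stages differed by less than 1. The low-count filter of the edgeR fit used the libraries of both crosses and kept 2371, 3582 and 7204 of these sets, so a transcript could pass it by being high in 1 cross. The values of the egg-enriched set are therefore given over every member, without that filter, as differences of mean log2 CPM.

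Egg-enriched transcripts were mostly lower in mother-exposed than in father-exposed embryos. Over all 3252 the median log2 difference was -0.28, and 968 (29.8%) were higher and 2173 lower in mother-exposed embryos, while 111 had no read in the 8 libraries. Over the 23207 transcripts of at least 2 CPM in control eggs or control embryos, the median was -0.04 and 42.6% were higher. Every mother-exposed library was lower for 206 of the 3252 (6.33%, against 4.75% of the 23207) and higher for 18 (0.554%, against 3.52%). Restricted to the 1043 with at least 1 CPM in control embryos, the median was -0.29. The library medians over all 3252, relative to the mean of the 8, were 0.0239, -0.125, -0.222 and -0.197 in mother-exposed libraries, against 0.134, 0, 0.129 and 0.339 in father-exposed libraries. Mother-exposed replicate 1 overlapped the father-exposed cross, and father-exposed replicate 4 stood highest. Control embryos defined the set by their low levels, so other crosses can lie above them through that choice. Against controls, whose libraries these values share, the medians were 0.08 in mother-exposed and 0.37 in father-exposed embryos. Embryos with 2 exposed parents had 0.30, and 0.06 without replicate 2 of that cross. On the log2(TPM + 1) scale the median between the crosses, over the 2371 that passed the filter, was -0.07, where low levels are drawn toward 0.

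**Figure D4:**
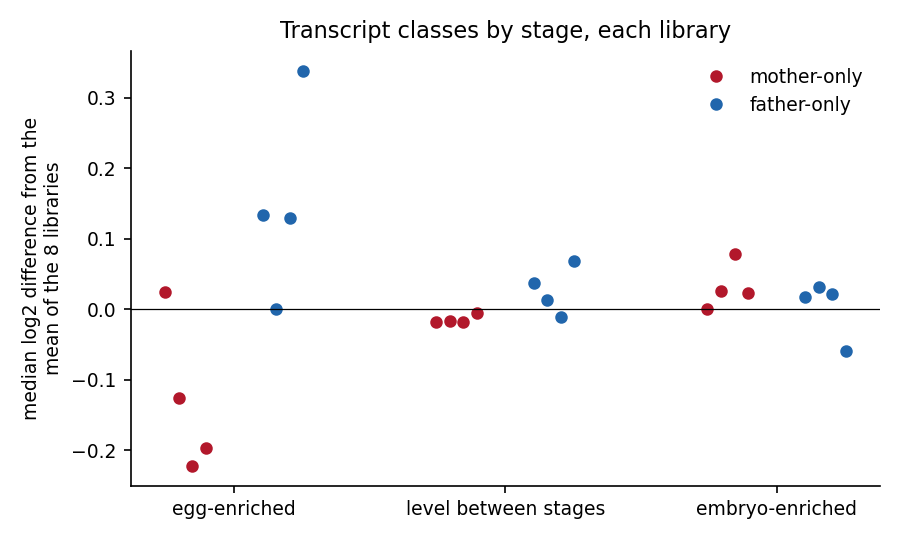
Median log2 difference of each library from the mean of the 8 libraries (vertical axis) for all 3252 egg-enriched, 7207 level and 3583 embryo-enriched transcripts. Points are libraries, mother-exposed left of father-exposed in each class. In the egg-enriched class 3 mother-exposed libraries lie below all father-exposed ones and replicate 1 does not.

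In the edgeR fit, the median log2 fold change was 0.04 for embryo-enriched and -0.02 for level transcripts, whose members nearly all passed the filter. As a difference of library means on the scaling of that fit, the embryo-enriched median was 0.05 with all 8 libraries. It was 0.02 without father-exposed replicate 4. The egg-enriched values above used another scaling, on which the medians with all 8 libraries were 0.02 for embryo-enriched and -0.04 for level transcripts. On the scaling of the edgeR fit, 260 of the embryo-enriched (7.26%) had every mother-exposed library higher and 95 (2.65%) every one lower. Over all 18554 transcripts of at least 2 CPM these shares were 4.68% and 4.09%. Scaled over all 24 libraries, the embryo-enriched shares were 6.56% and 3.49%, against 3.52% and 4.75% of the 23207. In the edgeR fit, length divided the embryo-enriched class. The 439 over 5000 bases had a median of 0.18, with 16.6% higher and 0.911% lower in every mother-exposed library. The 1827 of up to 2000 bases had a median of 0.005, with 4.65% and 2.96%. All transcripts of at least 2 CPM had medians of 0.08 over 5000 bases and -0.06 up to 2000 bases. Their shares were 2.35% higher and 4.16% lower up to 1000 bases, and 2.41% and 4.89% for 1000 to 2000 bases. The embryo-enriched medians thus lay above those of all transcripts of the same length, in long and short transcripts alike. The level set had 0.06 over 5000 bases and -0.06 up to 2000 bases. Egg-enriched transcripts kept by the filter showed no such rise with length. Their medians were -0.33 for the 292 over 5000 bases and -0.30 for the 1059 of up to 2000 bases.

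As shares of the counts, egg-enriched transcripts took 0.646%, 0.58%, 0.527% and 0.532% in mother-exposed libraries, against 0.647%, 0.593%, 0.676% and 0.777% in father-exposed libraries. The ranges overlapped, with means of 0.571% ± 0.0551 and 0.673% ± 0.0772 (SD, n = 4 each). Embryos with 2 exposed parents stood at 0.770% ± 0.366, with 1.32% in replicate 2, and control embryos at 0.517% ± 0.0181. The set was chosen for low levels in these control embryos, so their low share may be partly built in. The difference of -0.102 percentage points between mother-exposed and father-exposed libraries did not pass (two-sided exact permutation p = 0.0571, adjusted over 5 measures 0.0714). It was -0.0673 without father-exposed replicate 4. The egg-enriched share, too, was chosen with earlier results of these libraries known. Embryo-enriched transcripts took 23.8% ± 0.453 in mother-exposed and 23.5% ± 0.637 in father-exposed libraries (SD, n = 4 each; exact permutation p = 0.514, adjusted 0.514). Without father-exposed replicate 4, which stood at 22.6%, that difference was 0.00927 in place of 0.325 percentage points.

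On a line drawn from control eggs at 0 to control embryos at 1 in log2 CPM, mother-exposed embryos stood at 0.958, 0.978, 0.995 and 0.983, against 0.951, 0.964, 0.95 and 0.919 for father-exposed embryos. Mother-exposed replicate 1 fell within the father-exposed range and the other 3 above it. The means were 0.978 ± 0.0155 and 0.946 ± 0.0187 (SD, n = 4 each), and the difference of 0.0327 did not pass (two-sided exact permutation p = 0.0571, adjusted 0.0714). Embryos with 2 exposed parents stood at 0.953 ± 0.0568, with 0.869 in replicate 2, and control embryos at 1 by construction.

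**Figure D5:**
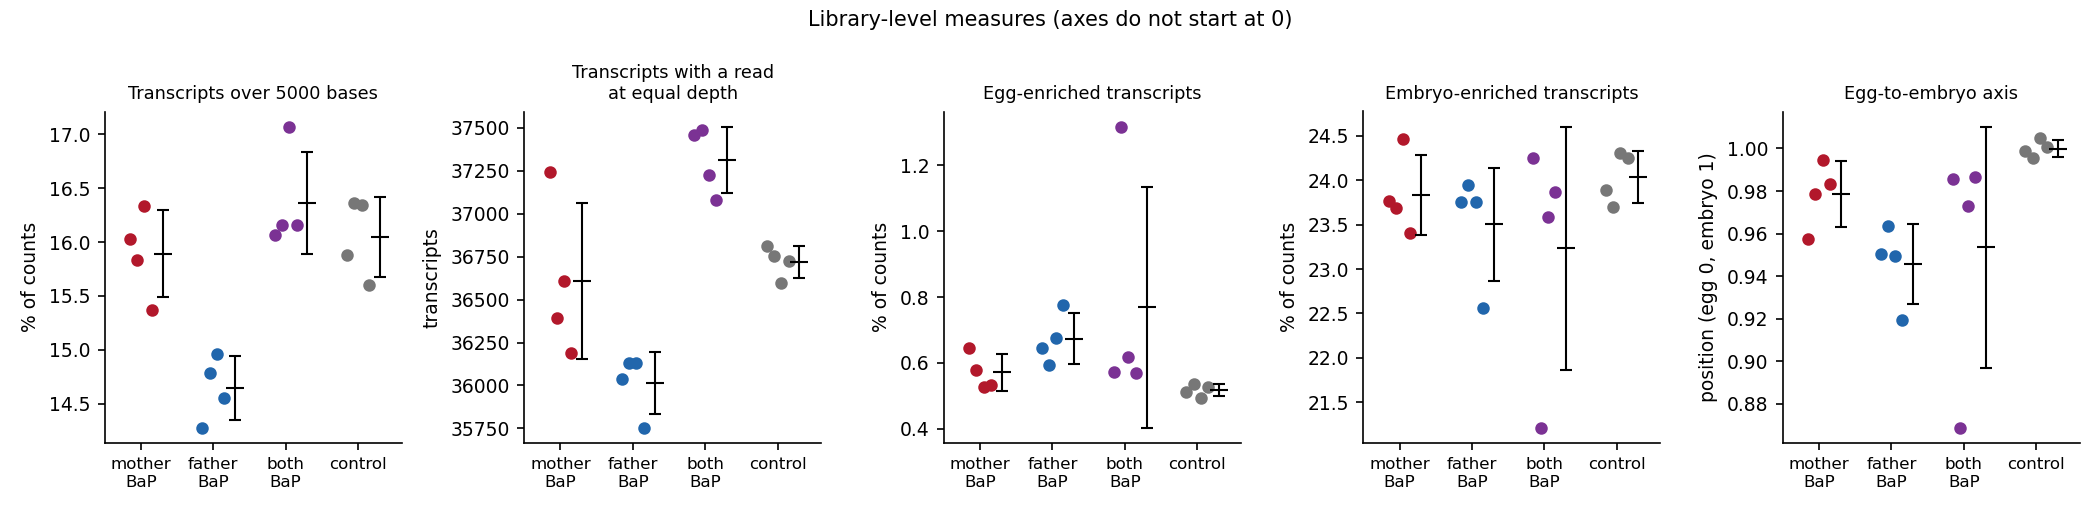
The 5 library measures in every embryo library (vertical axes, not from 0): share of counts in transcripts over 5000 bases, transcripts with a read at equal depth, shares of counts in egg-enriched and embryo-enriched transcripts, and position between control eggs (0) and control embryos (1). Points are libraries, bars the mean and SD of 4. Mother-exposed and father-exposed points do not overlap in the first 2 panels and overlap in the other 3.

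Abundant transcripts leaned the other way from long ones. The 3693 transcripts of at least 50 CPM had a median log2 fold change of -0.06, mother-exposed over father-exposed, with every mother-exposed library lower for 8.94% and higher for 3.66%, whereas the 8137 of 2 to 10 CPM had a median of 0.03, with 2.41% lower and 4.83% higher. Over all 18554 transcripts of at least 2 CPM the shares were 4.09% lower and 4.68% higher. On the log2(TPM + 1) scale the most abundant class had a median of 0.04, below the 0.07 of all 18554. Across 24846 transcripts, which are not independent replicates, the log2 fold changes of mother-exposed over father-exposed embryos and of eggs of BaP-fed over control mothers had a Pearson's r of 0.0812 and a Spearman's rho of 0.108, and the 2 comparisons share no library.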

How the data were processed

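RNA was measured in 24 libraries, made per the labels from total RNA after ribosomal depletion and sequenced as read pairs. The submitters' processing notes name FastQC, Salmon, DESeq2 and the build GRCz11 (tool versions: not given in the sources used here). The deposited tables hold, per the file headers, TPM and estimated read numbers (expected counts) for each row, besides its length and effective length, and rows were taken as transcripts from their identifiers. The 32 bisulfite samples were not analysed here.

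After rounding, these counts entered edgeR's quasi-likelihood test (edgeR 4.0.16, with R 4.3.3 and, for TPM, limma 3.58.1), using TMM scaling, filterByExpr and the robust option, in 1 model of all 16 embryo libraries, Benjamini-Hochberg adjustment over all tested, threshold 0.05. SEs derive from the fold change and F. Log2 CPM used a prior count of 2. Isoforms share reads, which Salmon divides by estimate. Library measures were compared by two-sided exact permutation tests. DESeq2 1.42.0 and the other alternatives are given in the closing section. The model was tested on simulated counts, and the permutation test on small fixed sets of values with a known answer. Counts were called whole within 0.0005. Gene lists could not be matched to identifiers and were not used.

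Named transcripts were up to 2 in each direction past the threshold by smallest p, filled with those of smallest p among transcripts of at least 2 CPM in the higher cross and without overlap. The members, sets and lists were chosen with earlier results of these data known, among them the shares of long and egg-enriched transcripts in father-exposed embryos, so those patterns are no independent support. Replicates of a cross differed by far more than sampling noise, with a chi-square per transcript of at least 14.2.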

Additional observations from a re-analysis of the deposited data

Results flagged for a closer look

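The share of counts in embryo-enriched transcripts was 22.6% in father-exposed replicate 4, whereas the other 3 father-exposed libraries lay between 23.8% and 23.95%. Its gap to the nearest library made up 0.86 of the range of the cross, above Dixon's critical value for 4 values. It was 1 of 17 groups of 4 looked at in this way, and about 1 in 20 such groups is marked by chance. Among the 8 libraries of the 2 crosses, it also had the highest share of egg-enriched transcripts (0.777%), the lowest position between egg and embryo (0.919), and the fewest transcripts with a read at equal depth (35754).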

How the results depend on the processing

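The count of transcripts past the threshold was 1 with RLE or upper-quartile factors, without a filter, and in limma on log2(TPM + 1), where the transcript called was another. It was 2 with a stricter filter (at least 1 CPM in 4 libraries), 496 in DESeq2, 2 in a fit of the 8 libraries alone (neither of them the transcript called above), and 0 over the 5499 transcripts with whole counts alone (edgeR, 576 at an unadjusted p under 0.05). Leaving out 1 library at a time gave 1 to 40. It gave 3 without mother-exposed replicate 4, father-exposed replicate 2 or control replicate 1, 4 and 5 without control replicates 3 and 4, 18 without father-exposed replicate 3, and 40 and 2 without replicates 2 and 4 of the cross with 2 exposed parents. With a replicate block the count was 1 and the called transcript the same (edgeR adjusted p = 0.0153). The deviations of same-numbered mother-exposed and father-exposed libraries from their crosses correlated at -0.0905 to 0.0192. Whether same-numbered libraries shared a tank or spawning was not tested. The 4 named transcripts kept their direction in every alternative in which they were tested. The difference in embryo-enriched transcripts reversed, to -0.00137 percentage points, when the set was defined at a log2 difference of 2 (exact permutation p = 1). The difference in transcripts with a read missed the threshold without thinning (610) and at 10 or more reads (571, exact permutation p = 0.286). Leaving out 1 library at a time it ran from 383 to 734, and over the 4 fits without a father-exposed library, which all missed the threshold before adjustment (exact permutation p = 0.0571), from 507 to 634. The difference in transcripts over 5000 bases ran from 1.10 to 1.42 percentage points and missed the threshold without father-exposed replicate 1 (1.13) or 4 (1.22). For transcripts with a read at equal depth and for those over 5000 bases, the crosses still did not overlap in these fits. With 1 library fewer, the exact p moves in coarse steps. The causes were not tested. On the scaling of the edgeR fit, the medians of 9 classes by length, stage and level kept their sign without any 1 library of the 2 crosses. Some of these classes lie within others. The egg-enriched median was -0.28 over every member and -0.31 over those kept by the filter. These alternatives were chosen after seeing the data. On the log2(TPM + 1) scale several medians turned from negative to positive. They were those up to 1000 bases (0.03), up to 2000 bases (0.04), of level transcripts (0.07), at 50 CPM or more (0.04) and over all of at least 2 CPM (0.07).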
